A study of Homo sapiens with 5 samples.

Results

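MOK, CARF, KAZN, RBCK1, PDE8B and PQLC3 are 6 human genes whose RNA was higher after knockdown of STAU1, higher after knockdown of UPF1 and higher in the differentiated library. They were taken by symbol from 26364 symbols, and all 6 had a value above 0 in every library. They were chosen by their log2 values in these 5 libraries, so their rise in these 3 comparisons is given as a description. By the smallest of its 3 log2 folds, each of the 6 lies among the top 10 of 1399 genes that were higher in all 3.

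The study profiled the human neuroblastoma line SH-SY5Y, whose cells extend neurites under retinoic acid, in 5 libraries of 1 sample each. They were cells given siRNA against STAU1 (siSTAU1), cells given siRNA against UPF1 (siUPF1) and cells given control siRNA (siControl), and cells labelled Differentiation and Nondifferentiation. All were grown with 10% serum and 1% antibiotics, and the media label of Differentiation and Nondifferentiation alike lists 50 μM retinoic acid. The design asks which transcripts go up both when either decay factor is depleted and with differentiation. With 1 library in each group there is no replicate check and no test, and the spread between cultures is unknown.

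STAU1 binds double-stranded stretches of RNA. In Staufen-mediated decay it recruits UPF1, the helicase that also drives nonsense-mediated decay, to mRNAs with such stretches downstream of the stop codon, and these mRNAs are then degraded. Transcripts under either pathway can rise when UPF1 is depleted, and indirect changes can follow as well. The 6 genes encode proteins of different kinds: a kinase, a transcription factor, a scaffold protein of cell junctions, a subunit of a ubiquitin ligase, an enzyme that breaks down cAMP and a small membrane protein.

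The promoters of the 4 genes with 1 listed transcription start are shown because genes chosen for a shared rise invite a look at what their starts share. Each window runs from 250 bases before to 50 bases after the RefSeq start, on GRCh38.p14, while hg19 is the build named for the deposited values. Capitals mark matches, on either strand, to 7 motifs: the retinoic acid receptor half-site AGGTCA, the cAMP response element TGACGTCA, the E-box CACGTG, the GC box GGGCGG, the NRF1-type palindrome, CCAAT and TATAAA.
MOK (chr14:102305115-102305414, minus strand): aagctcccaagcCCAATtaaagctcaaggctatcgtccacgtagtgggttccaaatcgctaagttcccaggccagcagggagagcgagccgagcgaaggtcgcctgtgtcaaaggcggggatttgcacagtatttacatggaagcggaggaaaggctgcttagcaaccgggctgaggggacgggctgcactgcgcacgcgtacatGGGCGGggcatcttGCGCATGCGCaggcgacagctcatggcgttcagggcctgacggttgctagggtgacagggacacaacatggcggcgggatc
CARF (chr2:202912025-202912324, plus strand): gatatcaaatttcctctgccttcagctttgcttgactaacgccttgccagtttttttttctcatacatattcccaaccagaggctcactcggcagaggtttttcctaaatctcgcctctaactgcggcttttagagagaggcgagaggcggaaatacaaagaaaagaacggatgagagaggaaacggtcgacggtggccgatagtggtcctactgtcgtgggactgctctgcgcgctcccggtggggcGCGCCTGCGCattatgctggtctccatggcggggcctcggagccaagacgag
RBCK1 (chr20:408049-408348, plus strand): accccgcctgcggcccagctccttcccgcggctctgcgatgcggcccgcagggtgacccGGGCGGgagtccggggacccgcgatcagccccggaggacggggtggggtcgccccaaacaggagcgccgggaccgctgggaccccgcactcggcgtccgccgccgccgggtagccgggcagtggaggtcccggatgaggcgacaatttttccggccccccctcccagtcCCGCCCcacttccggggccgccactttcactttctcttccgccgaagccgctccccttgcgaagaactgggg
PQLC3, listed as SLC66A3 (chr2:11155217-11155516, plus strand): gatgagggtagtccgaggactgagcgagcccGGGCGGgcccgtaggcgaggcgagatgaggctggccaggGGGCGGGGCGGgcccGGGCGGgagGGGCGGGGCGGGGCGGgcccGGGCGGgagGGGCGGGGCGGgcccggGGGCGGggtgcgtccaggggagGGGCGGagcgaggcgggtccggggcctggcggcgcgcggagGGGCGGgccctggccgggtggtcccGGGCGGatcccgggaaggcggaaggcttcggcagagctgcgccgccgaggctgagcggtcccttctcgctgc

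The motifs were chosen with these promoter letters seen, so the shares below are a description and nothing is read from them. MOK and CARF each held 1 NRF1-type motif, which 5.78% of 35116 promoter windows hold. The PQLC3 window held 14 GC boxes, some of them overlapping, a number reached by 0.0285% of windows, and RBCK1 held 2. At least 1 GC box was found in 6 of the 12 windows of the 6 genes, in 5 of the genes, and CARF held 0. Over all windows the share with at least 1 GC box is 45.0%. The PQLC3 window was 82.3% G and C, against a median of 58.7% over all windows, and that of CARF was 54.0%. KAZN and PDE8B have 4 listed starts each, and over these 8 windows and the 4 above AGGTCA, TGACGTCA and TATAAA were not found. MOK held 1 CCAAT, which 34.6% of all windows hold, and KAZN and PDE8B held CACGTG in 1 window each, which 7.26% hold. AGGTCA is present in 13.8% of all windows, TGACGTCA in 1.85% and TATAAA in 11.5%. That AGGTCA was not found says only that these letters are not in these windows.

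Values are the deposited log2 values. A gene is called measured in a comparison when the larger of its 2 values reached the median of all nonzero values of the 2 libraries, a log2 value between 7.76 and 7.84. All 6 genes were measured in each comparison. The number of reads behind a value was estimated from the spacing of the distinct values in a library, which put the totals at about 16800000 reads in siControl and about 25800000 reads in Differentiation, with the other 3 libraries between. Standard errors and 95% intervals from these reads cover counting error only. A gene is counted as higher at 2-fold or more, with 1.5-fold as a second threshold.

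Each siRNA target was lower in its own library. STAU1 stood at 11.34 in siSTAU1 and 12.87 in siControl, and UPF1 stood at 9.20 in siUPF1 and 10.74 in siControl. Neither target differed much with differentiation, with log2 folds of -0.01 (STAU1) and 0.07 (UPF1). The 10 noradrenergic neuroblastoma markers were above 0 in all 5 libraries, and 7 or 8 of them reached the median nonzero value. Their median log2 value was 11.31 in siSTAU1, 11.15 in siUPF1, against 11.24 in siControl, and 9.29 in Differentiation against 11.90 in Nondifferentiation. The summed linear values of these markers lay closer together, at 38903.6 in Differentiation and 46302.8 in Nondifferentiation. The transcription factor ISL1 stood at 8.99 in Differentiation and 11.89 in Nondifferentiation, and TH, the enzyme that makes the dopamine precursor, stood at 5.59 in Differentiation and 8.82 in Nondifferentiation. The neuronal gene STMN2 stood at 13.84 in Differentiation and 14.06 in Nondifferentiation. The part of these marker differences in the Differentiation folds of the 6 genes was not tested. Epithelial markers differed between the libraries: all 10 epithelial markers were above 0 in siSTAU1, while 5 were listed at 0 in siControl (CDH1, CLDN4, ELF3, ESRP1 and ESR1) and 3 in siUPF1 (CDH1, ELF3 and ESRP1). Likewise 0 were listed at 0 in Differentiation and 5 in Nondifferentiation (KRT18, CDH1, ELF3, ESRP1 and ESR1). Their median log2 value was 5.48 in siSTAU1, 2.25 in siUPF1, against 1.24 in siControl, and 3.26 in Differentiation and 0.13 in Nondifferentiation. Their summed linear values were 1144.4 in siSTAU1, 631.8 in siUPF1, against 635.8 in siControl, and 515.0 in Differentiation and 596.0 in Nondifferentiation. In each library only 1 epithelial marker, CLDN7, reached the median nonzero value, so these medians rest on low values. In bulk RNA, fewer cells of a type and less RNA per cell cannot be told apart. The part of this epithelial RNA in the values of the 6 genes was not tested.

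Of the 6 genes, 0 were 2-fold higher in siSTAU1 than in siControl, where 0.0946% of 8454 measured genes were, and 5 were at least 1.5-fold higher, where 1.02% of measured genes were. In siUPF1 against siControl, 1 was 2-fold higher against 0.401% of 8475 measured genes, and 6 were 1.5-fold higher against 3.0%. In Differentiation against Nondifferentiation, 3 were 2-fold higher against 10.4% of 9064 measured genes, and 4 were 1.5-fold higher against 21.8%. Lower by 2-fold or more were 0.106% of measured genes in siSTAU1, 0.142% in siUPF1 and 10.9% in Differentiation. The rule used these contrasts, so nothing is read from these counts. With so few genes past 2-fold in the knockdown comparisons, a count of 0 in a short list there is what most lists would give, and nothing is read from it either. Their median log2 fold was 0.65 in siSTAU1, 0.75 in siUPF1 and 1.05 in Differentiation, beside medians over all measured genes of 0.01, -0.01 and 0.02.

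**Figure D1:**
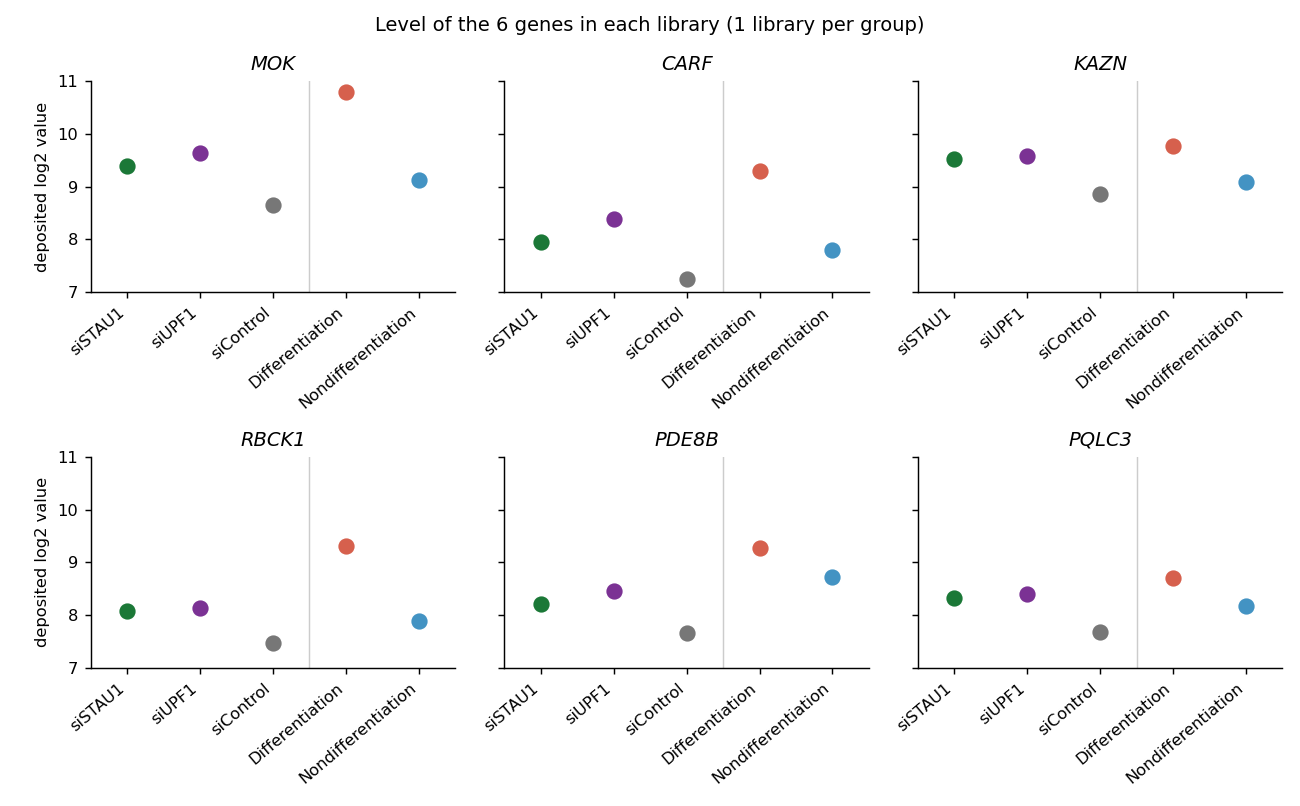
Deposited log2 value (vertical axis) of each of the 6 genes in the 5 libraries, 1 point per library with no error bar because each group has 1 library. siControl is the lowest and Differentiation the highest point in all 6 panels, and in the PDE8B panel Nondifferentiation, at 8.73, lies above both knockdown libraries.

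MOK had the largest fold of the 6 in Differentiation. It is a serine/threonine kinase related to the MAP kinases and to MAK and ICK, kinases that act in primary cilia. MOK stood at 9.40 in siSTAU1, 9.64 in siUPF1, against 8.66 in siControl, and at 10.79 in Differentiation and 9.12 in Nondifferentiation. Differentiation thus stood above every other library, with siUPF1 next and siControl lowest. The log2 fold was 0.74 in siSTAU1 (counting SE 0.098), 0.98 in siUPF1 (0.094) and 1.67 in Differentiation (0.069), a 3.18-fold higher level. An estimated 597 reads lay behind the siSTAU1 value, 762 behind siUPF1, 344 behind siControl, 2343 behind Differentiation and 537 behind Nondifferentiation.

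The annotated 3' end of MOK is overlapped on the other strand by WDR20, a cofactor of deubiquitinating enzymes. WDR20 stood at 10.07 in siSTAU1, 9.49 in siUPF1, against 9.38 in siControl, and at 10.19 in Differentiation and 9.19 in Nondifferentiation. Its log2 folds of 0.69 in siSTAU1 and 0.99 in Differentiation went the way of MOK, and that in siUPF1 was 0.11. The sources used here do not give whether strand was used in counting, and without it reads of this pair cannot be told apart. MOK also has the most annotated isoforms of the 6, with 40 GENCODE transcripts, 10 of them marked as nonsense-mediated decay transcripts.

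Neither MAK nor ICK was higher in all 3 comparisons. MAK stood at 6.34 in siSTAU1, 6.99 in siUPF1, against 6.56 in siControl, and at 7.53 in Differentiation and 7.18 in Nondifferentiation, below the level for measured genes throughout. ICK had log2 folds of 0.02 in siSTAU1, -0.29 in siUPF1 and -0.87 in Differentiation. Of 22 genes of the MAK family and of transport in cilia, 17 were measured in each knockdown comparison, and 0 of them were 2-fold different in either direction, with medians of -0.10 in siSTAU1 and -0.10 in siUPF1. In Differentiation 1 of the 19 measured list genes was 2-fold higher and 0 were lower, and the median was 0.28. The 1 gene was IFT88, a subunit of the particle that carries cargo along cilia, at 8.23 in Differentiation and 6.92 in Nondifferentiation. CDK20, a kinase that acts on MAK and ICK, had 0.45 in siSTAU1, 0.31 in siUPF1 and 0.84 in Differentiation.

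CARF, a calcium-responsive transcription factor described at a promoter of the neurotrophin gene BDNF in neurons, was the gene most like MOK. It stood at 7.95 in siSTAU1, 8.39 in siUPF1, against 7.25 in siControl, and at 9.30 in Differentiation and 7.81 in Nondifferentiation. siControl was again lowest, and siUPF1 stood above siSTAU1. The log2 fold was 0.70 in siSTAU1 (counting SE 0.16), 1.14 in siUPF1 (0.15), which is 2.21-fold higher, and 1.49 in Differentiation (0.11), which is 2.82-fold higher. The siControl value rested on an estimated 126 reads, the fewest behind any value of the 6 genes.

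The same name has been used for the protein of CDKN2AIP, which the files list as a gene of its own and which stood at 5.86 in siSTAU1, 6.89 in siUPF1, against 6.42 in siControl, and at 5.81 in Differentiation and 5.98 in Nondifferentiation. WDR12, a ribosome biogenesis factor, overlaps the 3' end of CARF on the other strand. It had 0.06 in siSTAU1, -0.08 in siUPF1 and -1.45 in Differentiation, where it stood at 6.27, against 7.73 in Nondifferentiation, opposite to CARF. CARF has 3 nonsense-mediated decay transcripts among 20 annotated ones.

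BDNF itself stood at 11.14 in siSTAU1, 10.38 in siUPF1, against 10.79 in siControl, and at 10.78 in Differentiation and 11.44 in Nondifferentiation, so it did not follow CARF. Of 23 genes of the BDNF promoter and of calcium-responsive transcription, 16 were measured in each knockdown comparison and 0 were 2-fold different, with medians of 0.07 in siSTAU1 and 0.02 in siUPF1. In Differentiation 4 of 18 measured list genes were 2-fold higher and 1 was lower, and the median was 0.61. Higher were CREM, a cAMP-responsive transcription factor, at 13.01 in Differentiation and 11.83 in Nondifferentiation, and MEF2C, an activity-dependent transcription factor, at 10.94 in Differentiation and 9.14 in Nondifferentiation. CRTC1, a coactivator of CREB, stood at 9.43 in Differentiation and 8.11 in Nondifferentiation, and NTRK2, the receptor of BDNF, stood at 8.84 in Differentiation and was listed at 0 in the other 4 libraries. CAMK2B, a subunit of calmodulin-dependent kinase II, was lower at 7.82 in Differentiation against 9.76 in Nondifferentiation.

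KAZN had nearly the same log2 fold in all 3 comparisons. It encodes kazrin, a protein that binds periplakin and is found at desmosomes of epithelial cells. KAZN stood at 9.53 in siSTAU1, 9.58 in siUPF1, against 8.86 in siControl, and at 9.76 in Differentiation and 9.08 in Nondifferentiation. The 3 libraries siSTAU1, siUPF1 and Differentiation lay above both others. The log2 folds of 0.67 in siSTAU1 (counting SE 0.092), 0.71 in siUPF1 (0.090) and 0.68 in Differentiation (0.076) differed from each other by less than these errors. In linear terms they were 1.59-fold, 1.64-fold and 1.60-fold.

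The plakins that work with kazrin in epithelia lay below the level for measured genes. Periplakin, PPL, stood at 5.21 in siSTAU1, 4.23 in siUPF1, against 4.70 in siControl, and at 3.68 in Differentiation and 2.68 in Nondifferentiation. The desmosomal plakin DSP stood at 5.86 in siSTAU1, 1.26 in siUPF1, against 3.46 in siControl, beside the epithelial markers that were higher in siSTAU1, and whether these bear on KAZN was not tested. Of 22 desmosome, plakin and kazrin partner genes, 9 were measured in each knockdown comparison and 0 were 2-fold different, with medians of 0.03 in siSTAU1 and -0.05 in siUPF1. In Differentiation 1 of the 10 measured list genes was higher and 1 lower, and the median was 0.75. Higher was PPFIBP2, a liprin, at 9.81 in Differentiation and 8.58 in Nondifferentiation, and lower was its relative PPFIA4, at 6.73 in Differentiation and 7.88 in Nondifferentiation. CTNND1, the p120 catenin of cell junctions, had 0.33 in siSTAU1, 0.32 in siUPF1 and 0.75 in Differentiation. The antisense gene TMEM51-AS1 reaches the 3' end of KAZN and stood between 4.15 and 5.04 in the 5 libraries.

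RBCK1 encodes HOIL-1, a subunit of the linear ubiquitin chain assembly complex, which attaches linear ubiquitin chains in NF-kappaB signalling. It stood at 8.08 in siSTAU1, 8.14 in siUPF1, against 7.47 in siControl, and at 9.31 in Differentiation and 7.89 in Nondifferentiation. Both knockdown libraries lay close together, and Differentiation stood well above the rest. The log2 fold was 0.61 in siSTAU1 (counting SE 0.15), 0.67 in siUPF1 (0.15) and 1.41 in Differentiation (0.11), which is 2.67-fold higher. No annotated gene overlaps RBCK1.

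The other subunits of the complex did not move with RBCK1 in Differentiation. RNF31, which encodes the catalytic subunit HOIP, stood at 5.61 in siSTAU1, 5.29 in siUPF1, against 4.98 in siControl, and at 5.23 in Differentiation and 5.14 in Nondifferentiation, below the level for measured genes. SHARPIN, the adaptor subunit, had log2 folds of -0.43 in siSTAU1, 0.16 in siUPF1 and -0.10 in Differentiation. Of 23 genes of linear ubiquitin and NF-kappaB signalling 22 were found by symbol. In the knockdown comparisons 14 were measured and 0 were 2-fold different, with medians of 0.05 in siSTAU1 and 0.04 in siUPF1. In Differentiation 15 were measured, 0 were 2-fold different, and the median was 0.18. NFKB1, which encodes the precursor of an NF-kappaB subunit, had 0.76 in siSTAU1, 0.12 in siUPF1 and -0.28 in Differentiation. RIPK1, a kinase of the tumour necrosis factor receptor complex, had 0.25 in siSTAU1, 0.43 in siUPF1 and 0.81 in Differentiation, and NFKBIA, the inhibitor of NF-kappaB that is also its target gene, had 0.13 in siSTAU1, -0.07 in siUPF1 and -0.29 in Differentiation.

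PDE8B encodes a phosphodiesterase that breaks down cAMP with high affinity. It stood at 8.22 in siSTAU1, 8.46 in siUPF1, against 7.67 in siControl, and at 9.28 in Differentiation and 8.73 in Nondifferentiation. Unlike for the other 5 genes, Nondifferentiation stood above both knockdown libraries. The log2 fold was 0.55 in siSTAU1 (counting SE 0.14), 0.79 in siUPF1 (0.14) and 0.55 in Differentiation (0.087). WDR41, which overlaps the 3' end of PDE8B on the other strand, had -0.02 in siSTAU1, 0.26 in siUPF1 and -0.28 in Differentiation.

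PDE8A, the closest relative of PDE8B, had 0.54 in siSTAU1, 0.27 in siUPF1 and -0.23 in Differentiation, and its siUPF1 and siControl values of 7.74 and 7.47 lay below the level for measured genes. Of 31 genes of cAMP synthesis, breakdown and effectors, 15 were measured in siSTAU1 and 13 in siUPF1, and 0 were 2-fold different, with medians of -0.02 and 0.01. In Differentiation 2 of 17 measured list genes were 2-fold higher and 2 were lower, and the median was 0.29. These 4 were all phosphodiesterases. PDE4C stood at 8.30 in Differentiation and 5.41 in Nondifferentiation, and PDE4A at 8.27 in Differentiation and 7.09 in Nondifferentiation. PDE4B was lower at 10.16 in Differentiation against 11.57 in Nondifferentiation, and PDE3A at 7.12 in Differentiation against 8.46 in Nondifferentiation. PRKAR1A, a regulatory subunit of the cAMP-dependent protein kinase, had 0.96 in Differentiation.

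PQLC3, now named SLC66A3, encodes a small membrane protein with PQ-loop repeats, a motif it shares with the lysosomal cystine transporter CTNS. It stood at 8.33 in siSTAU1, 8.39 in siUPF1, against 7.68 in siControl, and at 8.71 in Differentiation and 8.17 in Nondifferentiation. The log2 fold was 0.64 in siSTAU1 (counting SE 0.14), 0.71 in siUPF1 (0.14) and 0.55 in Differentiation (0.11), so the 3 folds differed by no more than about the errors. Its smallest fold, 0.545, is the last inside the top 10, and that of SNCAIP, the next gene outside, is 0.544. No annotated gene overlaps PQLC3.

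Of the other PQ-loop genes, CTNS was higher in all 3 comparisons, as PQLC3 was, and PQLC1 and PQLC2 were not. PQLC1 had 0.02 in siSTAU1, 0.18 in siUPF1 and -0.02 in Differentiation, while PQLC2, a lysosomal transporter of cationic amino acids, had -0.48 in siSTAU1, 0.71 in siUPF1 and -0.42 in Differentiation. CTNS had 0.25 in siSTAU1, 0.31 in siUPF1 and 0.23 in Differentiation. Of 9 genes of the family and its relatives 8 were measured in each comparison. In the knockdown comparisons 0 were 2-fold different, with medians of -0.14 in siSTAU1 and 0.16 in siUPF1. In Differentiation 1 was higher, the sugar transporter SLC50A1 at 12.56 against 11.43 in Nondifferentiation, and 0 were lower, with a median of -0.06.

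**Figure D2:**
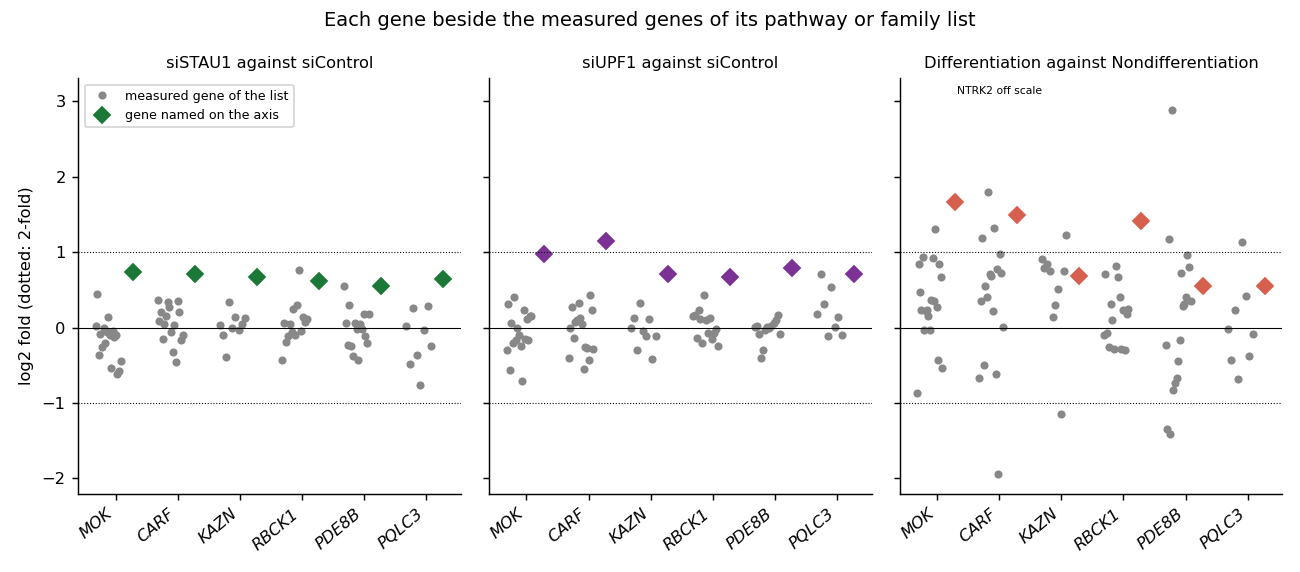
Log2 fold (vertical axis) of each of the 6 genes (diamonds) beside the measured genes of its pathway or family list (grey points), in the 3 comparisons, with dotted lines at 2-fold. No grey point passes a dotted line in the knockdown panels, while in Differentiation 9 list genes were 2-fold higher and 4 lower of 87 measured, beside 10.4% and 10.9% of all measured genes, with NTRK2 off the scale.

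In the knockdown comparisons all 6 folds lay above the 95th percentile of measured genes, which was a log2 fold of 0.37 in siSTAU1 and 0.48 in siUPF1. By rank from the highest fold they ran from place 27 (MOK) to 108 (PDE8B) of 8454 in siSTAU1 and from 24 (CARF) to 168 (RBCK1) of 8475 in siUPF1. In Differentiation the 95th percentile was 1.45, which MOK and CARF passed, and the 6 ran from place 327 (MOK) to 2109 (PQLC3) of 9064. The rule chose them by these folds.

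**Figure D3:**
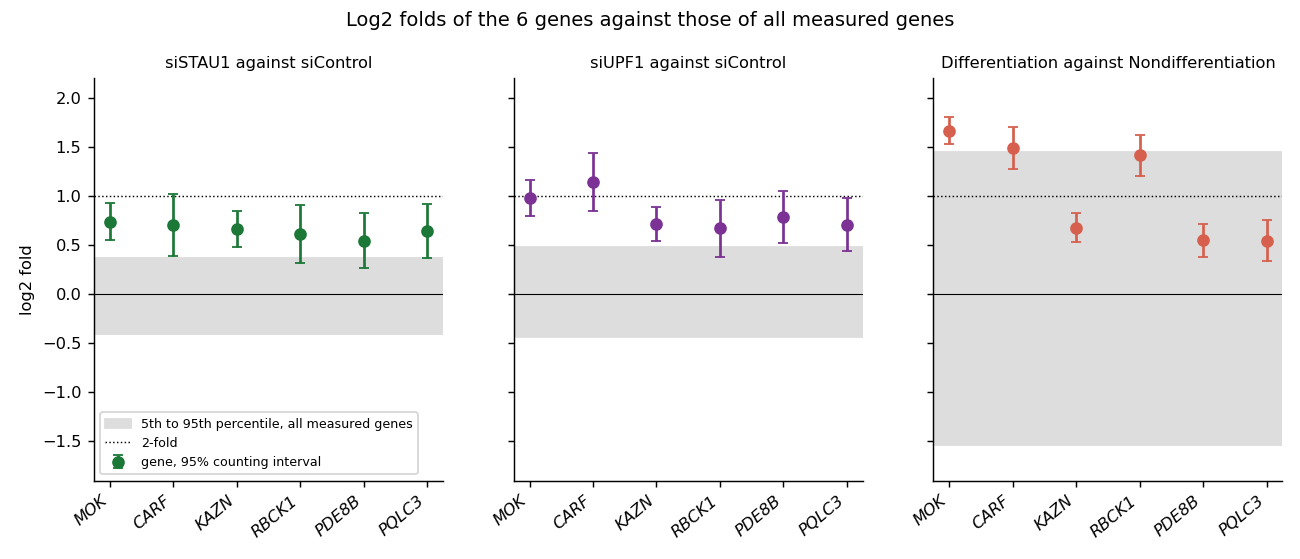
Log2 fold (vertical axis) of the 6 genes in each comparison, with 95% counting intervals, over the 5th to 95th percentile of all measured genes (grey band) and a dotted line at 2-fold. In the knockdown panels every point lies above the band, and in the Differentiation panel MOK and CARF lie above it, RBCK1 at its edge and KAZN, PDE8B and PQLC3 inside.

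Of 8238 genes that were above 0 in all 5 libraries and measured in all 3 comparisons, 1399 (17.0%) were higher in all 3 by any amount, 6 (0.0728%) by at least 1.5-fold and 1 (0.0121%) by 2-fold. The 1 gene was IGFBP3, which encodes a carrier of insulin-like growth factors, and whose smallest log2 fold was 1.07. MOK, CARF, KAZN and RBCK1 held the next places, with smallest folds of 0.74, 0.70, 0.67 and 0.61, ahead of the transcription factor PAX5 at 0.60, which made up the 6 past 1.5-fold. The noncoding RNA HAGLR and the axon guidance ligand SLIT2 stood at 0.58 and 0.56, before PDE8B and PQLC3, both at 0.55. Below them came SNCAIP, ALKBH6, PCBP3, SHISA5 and TPBG, with smallest folds of 0.54 to 0.53. Both knockdown comparisons share siControl.

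**Figure D4:**
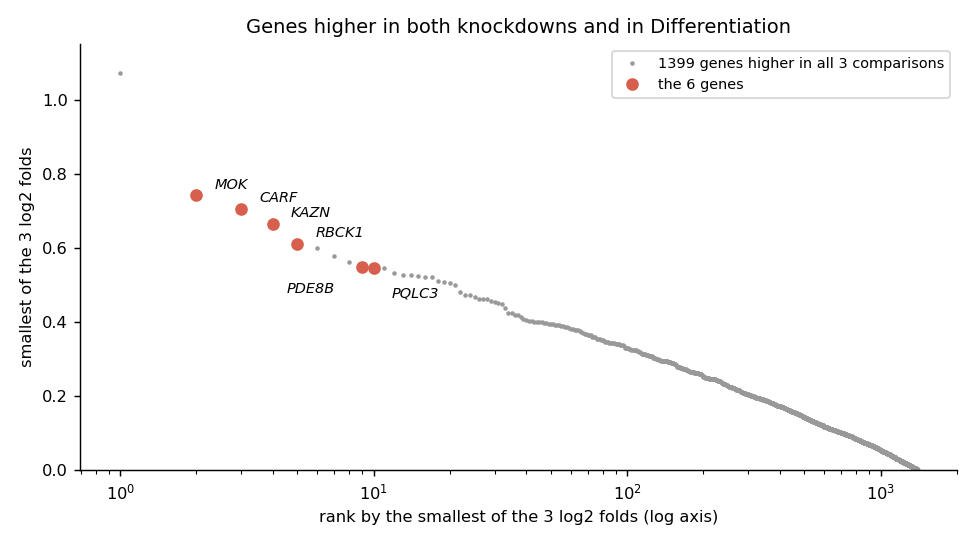
Smallest of the 3 log2 folds (vertical axis) against its rank (log axis) for the 1399 genes higher in all 3 comparisons, with the 6 genes in red. MOK to RBCK1 hold ranks 2 to 5 and PDE8B and PQLC3 ranks 9 and 10, and the values run on without a gap below them.

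The rule did not use siControl against Nondifferentiation, although both libraries enter it as references. All 6 genes were lower in siControl, with log2 folds from -1.06 for PDE8B to -0.22 for KAZN and a median of -0.47, where 49.0% of 8547 measured genes were lower. Every 95% counting interval lay below 0. PDE8B, at 7.67 in siControl and 8.73 in Nondifferentiation, was 2-fold lower, as 0.573% of measured genes were. siControl was the lowest and Differentiation the highest of the 5 libraries for all 6 genes, as for 11.2% of the 8238 genes. A low siControl value raises both knockdown folds at once, so the choice of the genes favours this position and nothing more is read from it.

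Against Nondifferentiation in place of siControl, each knockdown fold of the 6 genes was lower. In siSTAU1 the log2 folds were then 0.28 for MOK, 0.14 for CARF, 0.44 for KAZN, 0.19 for RBCK1 and 0.16 for PQLC3, and -0.52 for PDE8B. Thus 5 were higher, where 51.3% of measured genes were. The intervals of MOK and KAZN lay above 0, and that of PDE8B lay below it. In siUPF1 they were 0.51 for MOK, 0.58 for CARF, 0.49 for KAZN, 0.24 for RBCK1 and 0.23 for PQLC3, and -0.27 for PDE8B. Here too 5 were higher, where 48.0% of measured genes were. The intervals of MOK, CARF and KAZN lay above 0, those of RBCK1 and PQLC3 reached just below it, and that of PDE8B lay below it. None of the 6 was 1.5-fold higher with this reference. The values of siSTAU1, siUPF1 and Nondifferentiation all entered the choice of the genes, so these counts and intervals are a description. Differentiation stood above siControl, with log2 folds from 0.90 for KAZN to 2.13 for MOK, where 50.8% of 9032 measured genes were higher. The rule favours a high Differentiation value and a low siControl value, so nothing is read from this.

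**Figure D5:**
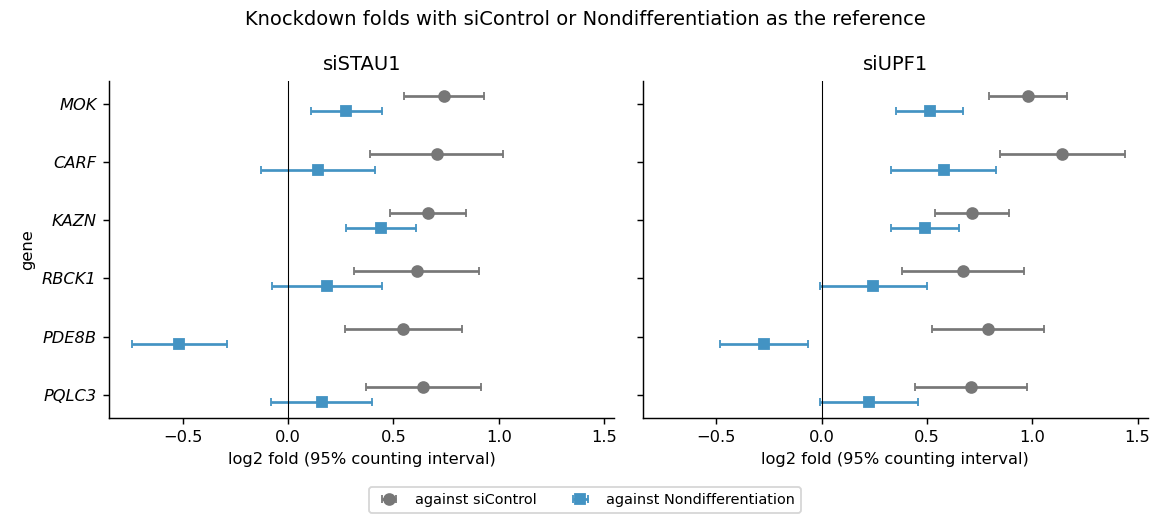
Log2 fold (horizontal axis, with 95% counting interval) of the 6 genes in siSTAU1 and siUPF1, against siControl (circles) and against Nondifferentiation (squares). Each square lies left of its circle, and for PDE8B the squares lie at -0.52 and -0.27.

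siUPF1 against siSTAU1 is no contrast of the rule, but the values of both libraries entered the choice of the genes, so it is a description. It gave positive log2 folds for all 6, where 46.4% of 8486 measured genes were higher. CARF had 0.44 with a 95% counting interval of 0.19 to 0.69, MOK had 0.24 (0.08 to 0.39) and PDE8B had 0.24 (0.01 to 0.48). For KAZN, RBCK1 and PQLC3 the folds of 0.05, 0.06 and 0.07 had intervals that reached below 0. These intervals leave out the spread between cultures, so no difference between the knockdowns is read from them.

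The likeness of the patterns is a description, since the genes were chosen on the same values. Likeness was taken as the root mean square difference of log2 values, each centred on the gene's own mean, over the 5 libraries, among 8305 other genes. CARF was the closest to MOK at 0.088, ahead of RBCK1 at 0.13, and MOK was the closest to CARF, ahead of SHISA4 at 0.14. RBCK1 was closest to APLP1, a relative of the amyloid precursor protein, at 0.056, and next to BLCAP at 0.11, with MOK in place 9 and CARF in place 31. KAZN was closest to AIG1 at 0.098 and TAZ at 0.10, with PQLC3 in the third place at 0.11. PQLC3 was closest to the trophoblast glycoprotein gene TPBG at 0.056 and to HOOK2 at 0.064, with KAZN in place 10. PDE8B was closest to GPR137 at 0.087 and to the collagen gene COL6A1 at 0.11, and its nearest of the other 5 genes, PQLC3, came at 0.29. Some pairs were far apart, and MOK was in place 4959 for KAZN and 4481 for PQLC3. These distances rest on 5 libraries.

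The transcripts of the 6 genes differed in several of the features that could be read from GENCODE 29. The number of annotated transcripts ran from 9 in KAZN and PDE8B to 40 in MOK, so all 6 were at or above the median of 9. Over 7701 matched protein-coding genes measured in all 3 comparisons, 46.5% had at least 1 transcript marked as a nonsense-mediated decay transcript, and of the 6 genes 4 did: MOK, CARF, RBCK1 with 2 of 15 and PQLC3 with 1 of 10. KAZN and PDE8B had none among 9 transcripts each. The longest coding transcript of CARF was 35.7% G and C, at the 2.12 percentile, and that of RBCK1 was 64.6%, at the 96.5 percentile, beside a median of 47.8%. The 3' untranslated region of that transcript was 3442 bases in CARF, 3411 in KAZN and 3256 in PDE8B, and 451 in MOK, 539 in RBCK1 and 1049 in PQLC3, beside a median of 1426. The isoforms behind the reads cannot be told from values per gene.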

How the data were processed

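Per the labels' protocols, Trizol RNA of SH-SY5Y cells (500 ng per library) was made into libraries with a kit named QuantSeq, a name used for 3' end kits. The catalogue number given for the kit could not be matched to a kit type here, so whether reads come from 3' ends is not certain. The deposited values are log2 expression values, 1 per symbol and library. The submitters' processing notes list Bowtie2, edgeR and hg19 and say no more of them. How reads were assigned to genes, and whether by strand, was not given in the sources used here. In the deposited log2 values the highest value was 18.01 and the upper quartile 8.63 or 8.64 in each library, as after quantile normalization, an inference from the values. Such scaling hides differences in total RNA and gives levels relative to the other genes.

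Groups were taken from the sample titles. Log2 folds were differences of deposited values, and single libraries allow no test. In linear form all values not listed at 0 were multiples of 1/5 within 0.001. Reads were estimated as the number of distinct values up to a gene's value, to 300 linear units, and by the spacing from 100 to 300 units beyond that. Counting standard errors follow from the reads of both libraries. The estimate and the fold counts were tested on simulated data. A value of exactly 0 is called listed at 0.

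The 6 genes, the pathway and marker lists, the motifs and the rule for naming genes were chosen with earlier results of these data known. The motifs were also chosen with the promoter letters seen. The rule named the 6 genes, STAU1 and UPF1, the 2 genes most like each, the 5 genes next below and those between them by the smallest fold, list genes past 2-fold and close relatives. WDR20, WDR12, WDR41, TMEM51-AS1 and the list genes under 2-fold other than those relatives were chosen after their values were seen. GENCODE 29 and the RefSeq tables are on GRCh38, so they gave names, transcript features and promoters, with no positions carried to hg19. All 6 symbols matched, PQLC3 as a synonym of SLC66A3 in RefSeq. The software was numpy 2.4.6, matplotlib 3.10.9 and pandas 2.3.3 under Python 3.11.15. Alternatives covered the filter, the scaling, a pseudocount of 16, the reference library and the fold threshold.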

Additional observations from a re-analysis of the deposited data

How the results depend on the processing

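With Nondifferentiation in place of siControl, 2 of the 12 knockdown folds of the 6 genes changed sign, those of PDE8B, to a log2 fold of -0.52 in siSTAU1 and -0.27 in siUPF1. No paired analysis was possible because each group has 1 library.

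With that reference 24 genes were 2-fold higher and 54 lower in siSTAU1, beside 8 and 9 with siControl. In siUPF1 46 were higher and 71 lower, beside 34 and 12 with siControl, and 0 of the 6 genes were 2-fold higher. 1 list gene was then lower in siSTAU1 and 2 in siUPF1. With siControl in place of Nondifferentiation, 5 of the 6 were 2-fold higher in Differentiation, as were 1047 of 9032 measured genes. The rule favours a low siControl value in the 6 genes, so nothing is read from this count. With Nondifferentiation as the reference of all 3, 1463 genes were higher in all 3, and 5 of the 6.

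With the floor left out, all genes above 0 in both libraries of a comparison were counted. Then 700 genes were higher and 714 lower in siSTAU1, 773 and 741 in siUPF1, and 2164 and 2211 in Differentiation. In siControl against Nondifferentiation 785 were higher and 742 lower, and in siUPF1 against siSTAU1 853 and 804. The list genes were then 4 higher and 2 lower in each knockdown and 17 and 7 in Differentiation. NTRK2 is not among the 17, since it was listed at 0 in Nondifferentiation. Of genes above 0 in every library, 2396 were higher in all 3. With the floor at the upper quartile 1 gene was higher and 2 lower in siSTAU1, 10 and 2 in siUPF1, and 487 and 513 in Differentiation. None of the 6 genes reached this floor in either knockdown comparison, so their count of 0 in siUPF1 was set by the filter. In Differentiation only MOK and KAZN reached it, and 1 of them, MOK, was 2-fold higher.

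With ribosomal protein genes set to 0 the median of measured genes moved to 0.11 in siUPF1 and 0.63 in Differentiation. Then 61 genes were higher and 7 lower in siUPF1, with 2 of the 6 higher, and 2768 higher and 413 lower in Differentiation, with all 6 higher, which is relative to that shift. With reads as estimated, an alternative chosen after seeing the data, 2 of the 6 were 2-fold higher in siUPF1, among 41 measured genes. At 1.5-fold in every comparison 6 genes were higher in all 3, and at 2-fold 1, with 0 of the 6. Without siSTAU1, also chosen after seeing the data, 2288 genes were higher in the other 2 comparisons, since fewer conditions apply. With 1 library in each group the spread between cultures is unknown, and an estimated 126 reads limit CARF in siControl.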

Other observations

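Other genes of the lists around the 6 lay below the level for measured genes and are given as values only. The adenylate cyclase ADCY5 stood at 6.55 in Differentiation and 3.41 in Nondifferentiation. PDE2A was listed at 0 in Differentiation and stood at 5.09 in Nondifferentiation. RAPGEF4, a cAMP-activated exchange factor, stood at 7.33 in siSTAU1, 7.46 in siUPF1, against 6.60 in siControl, and at 7.66 in Differentiation and 6.92 in Nondifferentiation, so it was higher in all 3 comparisons at low values.

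The hepatocyte marker ALB stood at 9.02 in siUPF1 and 6.36 in siControl, while 8 of the 10 hepatocyte markers were listed at 0 in each of these libraries. The summed linear value of the 10 mesenchymal markers was 108979 in Differentiation and 54053 in Nondifferentiation, and most of it was FN1, at 16.63 in Differentiation and 15.45 in Nondifferentiation. The median log2 value of the list was 7.33 in Differentiation and 8.33 in Nondifferentiation, and VIM stood at 11.27 in Differentiation and 12.52 in Nondifferentiation. The part of these markers in the values of the 6 genes was not tested.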
